A study of Mus musculus with 9 samples.

Results

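The 10 genes described here encode secreted factors that make or steady blood vessels, a vessel receptor, and the oxygen-regulated subunits of the hypoxia-inducible factors. They were taken by name from a list (Vegfa, Vegfb, Vegfc, Fgf1, Angpt1, Angpt2, Apln, Aplnr, Hif1a and Epas1), and all 10 were found among the 30128 genes of the table. Expression was measured by sequencing of polyadenylated RNA from mouse left ventricle in 9 libraries, 3 in each of 3 groups. Control hearts were wild type, and the labels name no virus for them. The null-virus hearts (AAV9_null) and the USP28-virus hearts (AAV9_USP28) were both from db/db mice, whose leptin receptor is defective and which become obese and diabetic. AAV9 is an adeno-associated virus serotype used to deliver genes to the heart. The null vector carried no USP28, while the other carried this deubiquitinating enzyme behind cTnT, a cardiac troponin T promoter that drives it in heart muscle cells. The study asked what added USP28 does in the diabetic heart. The labels give no strain, sex, age, dose or time after injection, and db/db genotype and virus cannot be told apart in a comparison with control.

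VEGF-A is the main growth signal for endothelial cells and in the heart is made largely by cardiomyocytes. VEGF-B is abundant in heart muscle and binds the receptor FLT1, and VEGF-C acts mainly on lymphatic vessels. Angiopoietin 1 activates the endothelial receptor TIE2 and steadies vessels, angiopoietin 2 usually opposes it, and apelin acts through its receptor APLNR on vessels and on the strength of the heartbeat. HIF-1 alpha and HIF-2 alpha (Epas1) are degraded when oxygen is ample and otherwise switch on genes such as Vegfa, so their activity is set largely at the protein level, which RNA does not show.

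The libraries held 35970332 to 56497662 counted reads. Null-virus replicate 1 stood apart from its group: over all tested genes it departed from the group mean by 0.334 log2 units on average, and the others by 0.144 to 0.214. Calls of the members, and counts of the gene lists, that change without it are given with and without it. USP28-virus replicate 1 held more atrial RNA than the other libraries, with a summed level of 4 atrial markers of 1440 scaled RPKM, against 80.2 to 340 elsewhere. The 7 cardiomyocyte markers summed to 22900 to 34200 in every library and 4 adipocyte markers to at most 0.327. Myh6, with group means of 13940 to 18040, held much of the cardiomyocyte sums, so they do not show that each marker was steady. The mean of Usp28 itself was 13.2 ± 0.62 scaled RPKM (SD, n = 3) for control, 8.47 ± 1.38 for null virus and 10.8 ± 0.805 for USP28 virus, lower with null virus than in control (log2 difference -0.64, adjusted p = 0.0085), while the db/db groups did not differ past the test (log2 difference 0.36, adjusted p = 0.2). All of these are bulk values, in which fewer cells of a type and less RNA per cell cannot be told apart.

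The promoters of Vegfa and Apln, called members with a sequence at hand, are shown first, with that of Hif1a for contrast, since the hypoxia-inducible factors bind DNA with the core letters ACGTG or GCGTG. RefSeq promoter sequences were at hand for 5 of the 10 genes (Vegfa, Vegfb, Vegfc, Apln and Hif1a), and were not used here for Angpt1, Angpt2, Aplnr, Epas1 and Fgf1. Each line gives the 250 bases before the RefSeq start on build GRCm38.p6, read 5′ to 3′ on the gene's strand, with capitals marking either core on either strand. The intervals are chr17:46032378-46032627 on the minus strand for Vegfa, chrX:48034854-48035103 on the minus strand for Apln and chr12:73907617-73907866 on the plus strand for Hif1a, whose RefSeq start lies inside the deposited span of the gene.
Vegfa: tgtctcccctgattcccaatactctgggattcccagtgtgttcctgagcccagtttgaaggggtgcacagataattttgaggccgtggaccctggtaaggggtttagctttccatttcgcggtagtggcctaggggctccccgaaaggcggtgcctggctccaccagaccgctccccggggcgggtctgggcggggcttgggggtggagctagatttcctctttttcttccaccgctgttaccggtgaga
Apln: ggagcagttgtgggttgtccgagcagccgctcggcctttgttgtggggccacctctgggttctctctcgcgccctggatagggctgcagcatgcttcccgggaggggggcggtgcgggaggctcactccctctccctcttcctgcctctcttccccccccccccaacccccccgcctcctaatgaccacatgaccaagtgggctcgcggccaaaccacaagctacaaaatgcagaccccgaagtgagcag
Hif1a: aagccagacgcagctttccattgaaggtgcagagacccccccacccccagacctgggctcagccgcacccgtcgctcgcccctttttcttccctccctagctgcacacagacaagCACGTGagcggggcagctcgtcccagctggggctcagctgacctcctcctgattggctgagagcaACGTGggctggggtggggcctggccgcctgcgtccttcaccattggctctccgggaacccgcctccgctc
Neither core occurred in the windows shown for Vegfa and Apln, nor in that of Vegfc. The Hif1a window held ACGTG 3 times, of which the matches on opposite strands overlap in the palindrome CACGTG. The Vegfb window held GCGTG 2 times and ACGTG 0 times. A second RefSeq start of Vegfa, inside the gene, had 1 of each. Of all 32851 promoter windows of this length, 16.6% held ACGTG, 28.2% held GCGTG and 38.6% held at least 1 of them. A match is a description of letters and shows no binding. Sequence outside these 250-base windows was not searched, so a window without a core does not show that the gene lacks one.

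Levels were compared per kilobase of gene, as RPKM (reads divided by gene length and by library depth) rescaled between libraries, called scaled RPKM here. In control hearts Vegfa was the most abundant of the 10 (149 ± 39.2, SD, n = 3), followed by Epas1 (68.2 ± 2.3), Vegfb (41.4 ± 2.02), Fgf1 (26.4 ± 3.31), Hif1a (10.9 ± 0.22) and Angpt1 (5.08 ± 0.657). The values of these 6 genes did not overlap between neighbours in the order. Apln (1.64 ± 0.268), Angpt2 (1.14 ± 0.448) and Aplnr (0.965 ± 0.211) came next and overlapped from one to the next, and Vegfc was lowest (0.449 ± 0.0756). The highest mean was 331 times the lowest. In null-virus hearts the order was different at both ends. Epas1 (88.4 ± 13.9) and Vegfa (80.7 ± 15.5) overlapped at the top. Apln had become the least abundant by mean (0.173 ± 0.091) and overlapped Aplnr (0.276 ± 0.145). With USP28 virus Vegfa (101 ± 9.05) was again above Epas1 (89.6 ± 4.7), with no overlap, and Apln (0.614 ± 0.187) overlapped Vegfc (0.595 ± 0.0658).

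**Figure D1:**
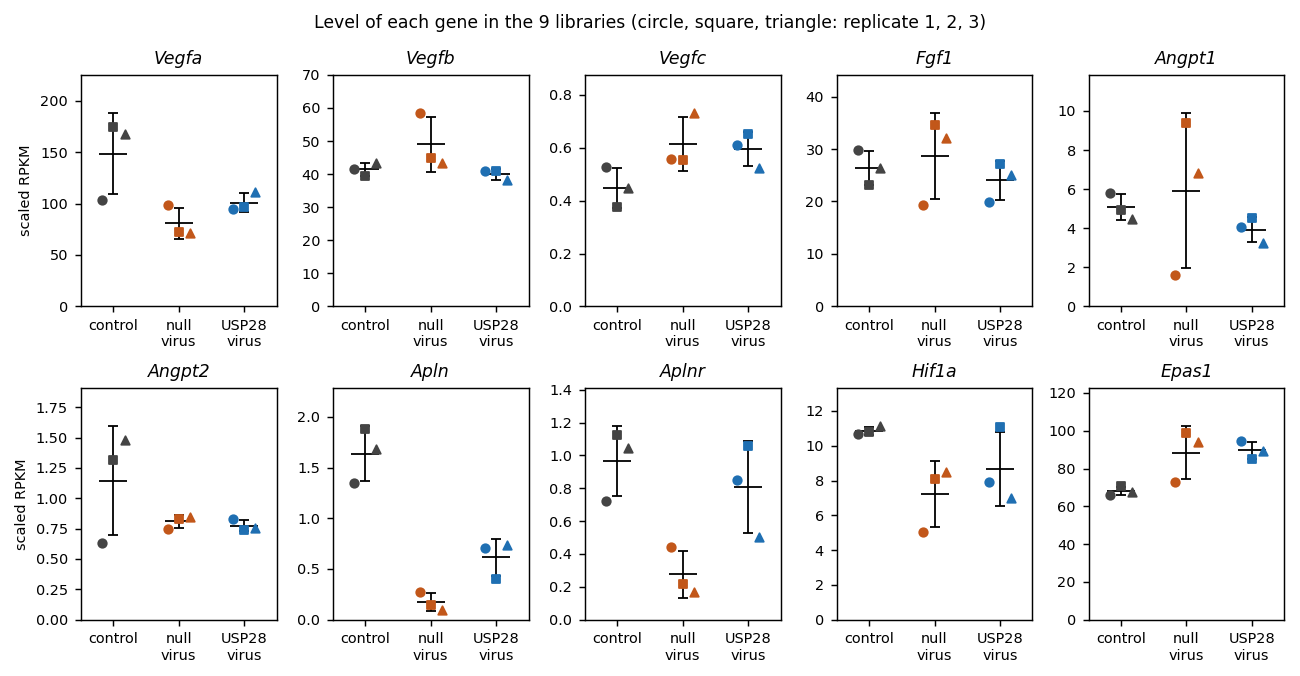
Scaled RPKM (linear axis from 0) of the 10 genes by group. Points are libraries, with the replicate given by the symbol, and bars are the mean ± SD of 3. Apln lies between 1.35 and 1.88 in control, 0.0995 and 0.274 with null virus, and 0.399 and 0.736 with USP28 virus.

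Comparing null-virus db/db hearts with control hearts, the apelin ligand and receptor and Vegfa were lower, and no member was higher past the test. The test was limma on log2(scaled RPKM + 0.1), with adjusted p under 0.05 over all 14104 genes tested counted as a call. By it 3 of 10 members were lower and 0 higher, where 22.4% of all tested genes were called. The unadjusted limma p was under 0.05 for 5 members and for 5357 of the 14104 genes. Limma voom on the recovered reads called 4 members, and its count over all genes is not given here. The values of the groups did not overlap for 7 of the 10, 3 higher and 4 lower, against 41.5% of all genes. The median log2 difference of the members was -0.24, and that of all genes 0.01. When 1 library was left out, the count of members called ran from 1 to 5, and that of all genes from 1441 to 4473. The member count was 1 (Apln) without control replicate 2 or 3 and 5 without null-virus replicate 1.

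Between the db/db groups, Apln and Aplnr had the widest differences among the members, both with the higher mean under USP28 virus, and neither passed. In limma 0 of 10 members were called, where 0.553% of all genes were, and voom called 0 members. The unadjusted limma p was under 0.05 for 3 members and for 2356 of the 14104 genes. Groups did not overlap for 3 members, Apln and Aplnr above and Vegfb below, against 23.4% of all genes. Without null-virus replicate 1 there were 3 calls, Apln and Aplnr higher and Angpt1 lower. Calls over all genes ran from 0 to 948 when 1 library was left out. This comparison and the one before share the null-virus libraries, so a low value there lowers one difference and raises the other. Likewise both comparisons with control share the control libraries.

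Comparing USP28 virus with control, 1 of 10 members was called, Apln, which was lower. Of all genes 11.9% were called. Groups did not overlap for 2 members, Apln below and Epas1 above, against 45.8% of all genes. The median log2 difference was -0.3, against 0.01 for all genes. The Apln call was lost without control replicate 2 or 3 or any 1 of the USP28-virus libraries, with adjusted p of 0.055 to 0.099. Without control replicate 1 there were 3 calls (Vegfa, Angpt2 and Apln, all lower), and without null-virus replicate 1 there were 2 (Epas1 higher and Apln lower). Calls over all genes ran from 368 to 4121 when 1 library was left out.

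**Figure D2:**
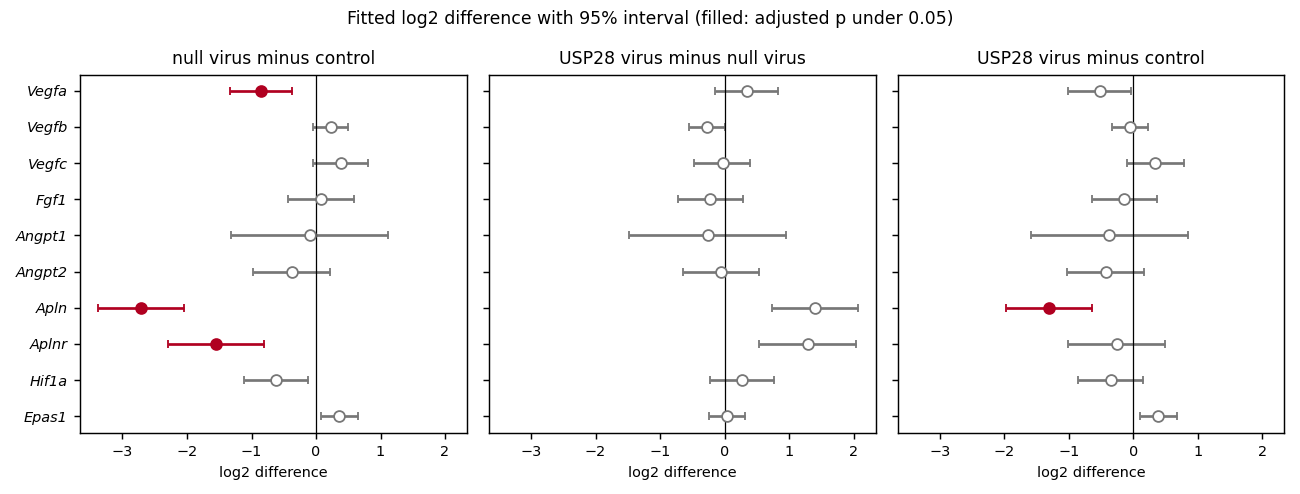
Log2 differences of the 10 genes in the 3 comparisons, from 1 limma fit of all 9 libraries; points are estimates, bars are 95% intervals and filled points have an adjusted p under 0.05. Filled points are Vegfa, Apln and Aplnr in null virus minus control (left) and Apln in USP28 virus minus control (right).

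Apln, which encodes the peptide apelin (chromosome X, 48025146 to 48034853, minus strand), was at 1.35, 1.88 and 1.68 scaled RPKM in control replicates 1, 2 and 3. It was at 0.274, 0.144 and 0.0995 in the null-virus libraries and at 0.707, 0.399 and 0.736 in the USP28-virus libraries. The 3 groups did not overlap, with every USP28-virus value between the null-virus and the control values. The null-virus mean was 10.5% of the control mean, a log2 difference of -2.71 (SE 0.29, 95% interval -3.38 to -2.05, adjusted p = 0.0011). Apln kept this call in every alternative tried, with log2 differences of -1.17 at a pseudocount of 1 and -3.28 at a pseudocount of 0.01. These low values rested on 26, 18 and 14 reads, of which the last has an exact Poisson 95% interval of 7.65 to 23.5, counting error only, against 238 to 270 reads in control. With USP28 virus the mean was 3.56 times the null-virus mean (log2 difference 1.4, SE 0.29, adjusted p = 0.079), which did not pass, and 37.5% of the control mean (log2 -1.31, SE 0.29, adjusted p = 0.025), which did. Without null-virus replicate 1, the highest of its group, the difference from null virus was 1.66 with adjusted p = 0.012, and without USP28-virus replicate 1, the library with atrial RNA, it was 1.29 with adjusted p = 0.23.

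Aplnr, the G protein-coupled receptor of apelin (chromosome 2, 85136225 to 85139923, plus strand), was at 0.725, 1.12 and 1.04 in control and at 0.44, 0.217 and 0.169 with null virus. With USP28 virus it was at 0.853, 1.06 and 0.506. The null-virus libraries were all below the others, and the other two groups overlapped. The null-virus mean was 28.6% of control (log2 -1.55, SE 0.33, adjusted p = 0.013), and the call was lost without control replicate 2 (adjusted p = 0.056) or 3 (adjusted p = 0.053). Between USP28 virus and null virus the log2 difference was 1.29 (95% interval 0.53 to 2.04, adjusted p = 0.12), and without null-virus replicate 1 it was 1.58 (adjusted p = 0.022). USP28 virus and control differed by -0.26 (95% interval -1.01 to 0.49, adjusted p = 0.65). Both genes entered the test through control and USP28-virus libraries alone, since no null-virus library reached the minimum of 0.5 RPKM. Apela, which encodes another ligand of the receptor, was listed at 0 in all control and USP28-virus libraries and reached at most 0.0501 with null virus.

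Vegfa (chromosome 17, 46016993 to 46032369, minus strand) was at 104, 175 and 168 scaled RPKM in control, 98.5, 72.6 and 70.9 with null virus, and 94.8, 96.9 and 111 with USP28 virus. Control replicate 1 was closest to the db/db libraries, and null-virus replicate 1 was the highest of its group. The null-virus mean was 54.3% of control (log2 -0.86, SE 0.21, adjusted p = 0.023). The call was lost without control replicate 2 or 3 or null-virus replicate 2 or 3 (adjusted p = 0.057 to 0.087), and also when the 2 groups were fitted by themselves (adjusted p = 0.068). The USP28-virus mean was 125% of null virus (log2 0.34, adjusted p = 0.44) and 67.9% of control (log2 -0.52, 95% interval -1.01 to -0.04, adjusted p = 0.15). Neither passed, though the second did without control replicate 1 (log2 -0.77, adjusted p = 0.037).

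Vegfb (chromosome 19, 6982473 to 6987651, minus strand) varied little. It was at 41.4, 39.5 and 43.5 in control, 58.4, 44.9 and 43.5 with null virus, and 41, 40.9 and 38.1 with USP28 virus. The log2 difference from control was 0.23 with null virus (95% interval -0.05 to 0.5, adjusted p = 0.21) and -0.05 with USP28 virus (-0.33 to 0.23, adjusted p = 0.82). Null-virus replicate 1 stood above the rest. Every USP28-virus value was below every null-virus value, and the log2 difference of -0.28 did not pass (adjusted p = 0.3). Vegfc (chromosome 8, 54077606 to 54187096, plus strand) was near the limit of the filter, at 0.375 to 0.526 in control, 0.554 to 0.731 with null virus and 0.523 to 0.652 with USP28 virus, on 39 to 82 reads a library. Its log2 differences from control were 0.38 (adjusted p = 0.18) and 0.34 (adjusted p = 0.27). Fgf1, the acidic fibroblast growth factor (chromosome 18, 38838673 to 38929404, minus strand), overlapped between all groups, with medians of 26.4, 32.1 and 25 and no difference past the test (adjusted p = 0.63 to 0.82).

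The ratio of Vegfb to Vegfa, taken within each library and so free of the scaling between them, was 0.4, 0.226 and 0.259 in control, 0.593, 0.619 and 0.613 with null virus and 0.433, 0.422 and 0.342 with USP28 virus. The null-virus libraries lay within a narrow range above all 6 others. On the log2 scale their mean ratio was 1.09 above control and the USP28-virus mean was 0.62 below null virus (exact two-sided permutation p = 0.1 in each, the smallest that 3 against 3 can give). USP28 virus and control differed by 0.47 (exact permutation p = 0.2).

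Angpt1 (chromosome 15, 42424727 to 42676977, minus strand) was the least uniform member within the null-virus group. Its levels were 5.79, 4.95 and 4.5 in control, 1.59, 9.36 and 6.81 in null-virus replicates 1, 2 and 3, and 4.05, 4.51 and 3.23 with USP28 virus. Null-virus replicate 1 was the lowest of the 9 libraries and the other two of its group were the highest. The coefficient of variation was 67% with null virus, against 12.9% in control and 16.5% with USP28 virus, where other members varied more (Angpt2 39.2% in control and Aplnr 34.7% with USP28 virus). With all libraries the log2 difference of null virus from control was -0.1 (SE 0.53, adjusted p = 0.9), although the plain mean was 117% of control. Without replicate 1 it was 0.65 (adjusted p = 0.029), and that of USP28 virus from null virus was -1.02 (adjusted p = 0.019). Angpt2 (chromosome 8, 18690263 to 18741562, minus strand), an endothelial gene, was at 0.635, 1.31 and 1.48 in control, between 0.748 and 0.849 with null virus and between 0.741 and 0.831 with USP28 virus. Control replicate 1 lay below all db/db libraries and the other control libraries above them, and neither db/db group differed from control past the test (adjusted p = 0.32 and 0.31). Without control replicate 1 both did (log2 -0.72, adjusted p = 0.017, and -0.78, adjusted p = 0.024). The ratio of Angpt2 to Angpt1 spanned 0.11 to 0.33 in control, 0.0888 to 0.472 with null virus and 0.164 to 0.233 with USP28 virus, and all groups overlapped (exact permutation p = 0.9 in each comparison).

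Hif1a (chromosome 12, 73901375 to 73947530, plus strand) was at 10.7, 10.8 and 11.1 in control, 5.03, 8.11 and 8.49 with null virus, and 7.93, 11.1 and 7 with USP28 virus. All null-virus values were below control, but the difference did not pass (log2 -0.62, SE 0.22, adjusted p = 0.072), and limma voom put it just past the threshold (adjusted p = 0.044). Without null-virus replicate 1, the lowest library, the log2 difference was -0.38 (adjusted p = 0.12). USP28 virus was at -0.35 from control (95% interval -0.85 to 0.15, adjusted p = 0.33). Epas1 (chromosome 17, 86753907 to 86833410, plus strand) went the other way. It was at 66.1, 70.6 and 67.8 in control, 72.6, 98.7 and 93.8 with null virus, and 94.5, 85.1 and 89.2 with USP28 virus. Every db/db value was above every control value, at 130% and 131% of the control mean (log2 0.36, adjusted p = 0.066, and 0.39, adjusted p = 0.074). When null-virus replicate 1 was left out both passed (log2 0.5, adjusted p = 0.0011, and 0.39, adjusted p = 0.0023). The db/db groups differed by 0.03 (95% interval -0.25 to 0.31).

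The ratio of Epas1 to Hif1a within a library was 6.17, 6.56 and 6.1 in control, 14.5, 12.2 and 11.1 with null virus and 11.9, 7.69 and 12.7 with USP28 virus. All 6 db/db libraries were above all 3 control libraries, and the db/db groups overlapped. The mean log2 ratio was above control by 0.99 with null virus and by 0.75 with USP28 virus (exact two-sided permutation p = 0.1 in each, the smallest possible), and the db/db groups differed by -0.25 (exact permutation p = 0.5).

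**Figure D3:**
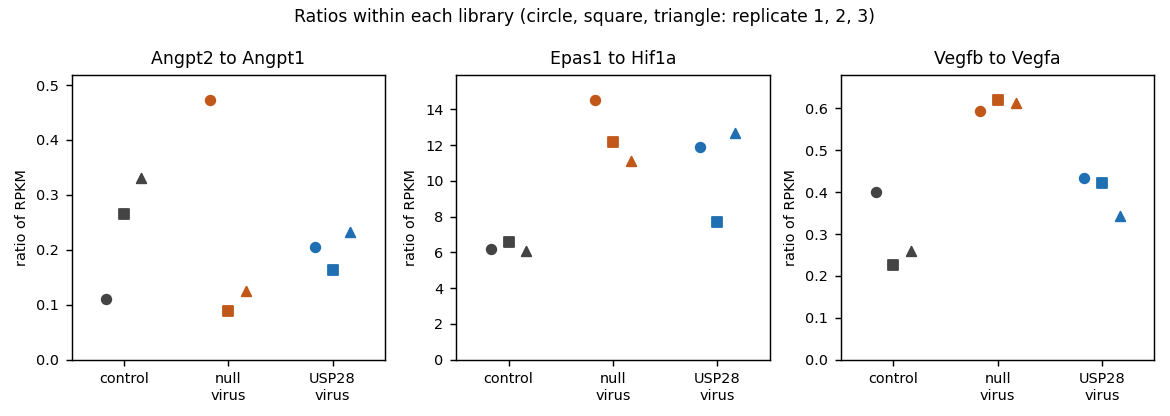
Ratio of RPKM (linear axis from 0) of 3 pairs of genes within each library; points are libraries, with the replicate given by the symbol. Vegfb to Vegfa is 0.593 to 0.619 with null virus and at most 0.433 elsewhere, and Epas1 to Hif1a is 6.1 to 6.56 in control and at least 7.69 in db/db hearts.

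Reads of Angpt1 and Hif1a may be shared with antisense genes, and cannot be told apart from theirs, since no source used here gives the strand setting of the counting. Gm17473 lies on the opposite strand over 17.3% of the length of Angpt1 and held 7 reads in null-virus replicate 1 and 40 to 176 in the other libraries. Gm15283 lies over 5.6% of Hif1a and held 110 reads in null-virus replicate 1 and 275 to 666 elsewhere. In both pairs the same library was lowest for the gene and its antisense partner. Gm49321, on the same strand as Hif1a, overlaps 2.5% of it and was not analysed here. The other members shared no exon bases with an annotated gene of GENCODE M21.

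The alternatives moved the members unequally. Leaving out null-virus replicate 1 changed the sign of Angpt1 in the comparison with control, and of Epas1 between the db/db groups, from 0.03 to -0.11. Apln differences ranged from -2.98 to -2.51 against control when single libraries were left out, and Vegfa differences from -1.1 to -0.73.

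**Figure D4:**
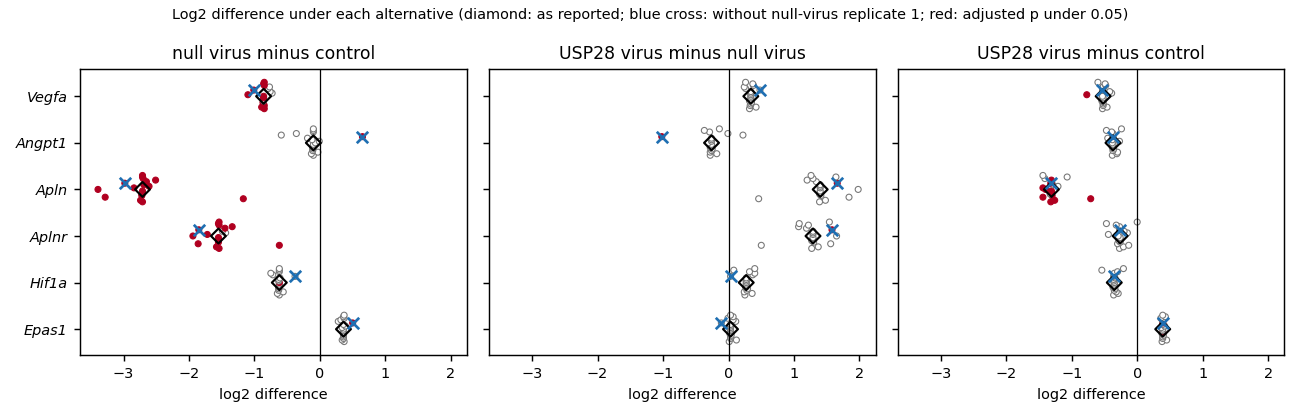
Log2 differences of 6 of the genes as reported (diamonds) and under each alternative (small points, red where the adjusted p is under 0.05), with the fit without null-virus replicate 1 as a blue cross. In the left panel every Apln point is red, and the blue cross of Angpt1 lies at 0.65 while its diamond is at -0.1.

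Genes with the most similar pattern were sought for the 3 called members, as the smallest root mean square difference of centred log2 levels over the 9 libraries. For Apln the nearest were Col3a1, a fibrillar collagen (0.259), Krt222 (0.316) and Foxo6os (0.347), against a spread of 1.15 of Apln about its own mean. The mean of Col3a1 was 12.4 scaled RPKM in control, 2.24 under null virus and 5.5 under USP28 virus, the same order as Apln. Since Col3a1 was picked for its likeness to Apln in these libraries, the shared order follows from the choice. For Aplnr they were Myh7b, a slow-type myosin (0.322), Klhdc7a (0.325) and Hspa12a (0.335), against 0.769. For Vegfa they were Ckap4, a membrane protein of the endoplasmic reticulum (0.124), Ift122, a component of cilia (0.144), and Pcdh12, an endothelial protocadherin (0.146), against 0.428. Among the members themselves Angpt2 was nearest to Vegfa (0.296), and both have control replicate 1 as the lowest control library.

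The other genes of these pathways were counted from lists, with examples of those past the test. For all lists below, the share of all genes called was 22.4% with null virus and 11.9% with USP28 virus against control. It was 0.553% between the db/db groups. With 1 library left out, calls over all genes ran from 1441 to 4473, 368 to 4121 and 0 to 948 in the same order. Of the 5 VEGF receptors and co-receptors 1 was higher and 2 were lower in null-virus hearts than in control. Flt1, which binds VEGF-A and VEGF-B, rose from 7.2 ± 0.26 to 10.7 ± 2.6 scaled RPKM (log2 0.54, adjusted p = 0.049). Nrp1, a co-receptor of VEGF-A, fell from 6.87 ± 0.71 to 3.92 ± 0.55 (log2 -0.8, adjusted p = 0.004), and Nrp2, a co-receptor of VEGF-C, fell from 3.23 ± 0.75 to 1.99 ± 0.071 (log2 -0.65, adjusted p = 0.028). Kdr, the main signalling receptor of VEGF-A, was at 18.2 ± 4.2 and 13 ± 1.7 (adjusted p = 0.092). With USP28 virus Nrp1 was at 5.8 ± 0.34 and Nrp2 at 3.19 ± 0.32, log2 differences of 0.56 and 0.65 from null virus that did not pass (adjusted p = 0.09 and 0.12), and 0 of 5 were called in limma against null virus or control. Without null-virus replicate 1, Nrp1 was higher (log2 0.45, adjusted p = 0.044) and Flt1 lower (log2 -0.41, adjusted p = 0.028) with USP28 virus than with null virus. In that fit Kdr was also lower with null virus than in control (log2 -0.56, adjusted p = 0.049), and Flt1 higher with USP28 virus than in control (log2 0.34, adjusted p = 0.012).

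Among 6 other VEGF and FGF ligands Pgf, placental growth factor and a ligand of FLT1, was higher in both db/db groups. It was at 3.11 ± 0.31 in control, 7.64 ± 0.97 with null virus (log2 1.27, adjusted p = 0.00086) and 5.84 ± 0.48 with USP28 virus (log2 0.89, adjusted p = 0.0053). Fgf16 and Fgf18, a pair of secreted fibroblast growth factors, fell by 0.63 (adjusted p = 0.018) and by 1.3 (adjusted p = 0.013) on the log2 scale with null virus. With USP28 virus Fgf16 was at 3.58 ± 0.56, against 3.61 ± 0.34 in control, and Fgf18 at 1.12 ± 0.34, against 1.85 ± 0.078. Neither differed from control past the test (adjusted p = 0.95 and 0.13). Of 3 tested FGF receptors Fgfr3 (log2 1.21, adjusted p = 0.0074) and Fgfrl1 (log2 0.41, adjusted p = 0.042) were higher with null virus, and 0 were called with USP28 virus in limma. When null-virus replicate 1 was left out, Fgfr1 passed too with null virus (log2 0.37, adjusted p = 0.044), and Fgfr3 with USP28 virus against control (log2 0.69, adjusted p = 0.047). In that fit Fgf9, another ligand, was higher with null virus than in control (log2 0.56, adjusted p = 0.042) and lower with USP28 virus than with null virus (log2 -0.75, adjusted p = 0.043), and Fgf18 was lower with USP28 virus than in control (log2 -0.72, adjusted p = 0.032). Of 3 tested TIE receptors and partners 0 were called with null virus in limma and 2 with USP28 virus against control, Tie1 (log2 0.61, adjusted p = 0.012) and Ptprb, a phosphatase that restrains TIE2 (log2 0.65, adjusted p = 0.04). After null-virus replicate 1 was left out, Tek, which encodes TIE2, and Ptprb were higher with null virus too (log2 0.43 and 0.58, adjusted p = 0.0079 and 0.0014).

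Of 7 tested HIF subunits and regulators 1 rose and 2 fell with null virus, and 0 rose and 3 fell with USP28 virus against control. Egln3, a prolyl hydroxylase that marks HIF for degradation and is itself a HIF target, fell from 14 ± 5.1 to 5.33 ± 0.39 with null virus (log2 -1.31, adjusted p = 0.015) and was at 4.37 ± 1.1 with USP28 virus (log2 -1.62, adjusted p = 0.012). Hif1an, the asparagine hydroxylase that inhibits HIF, fell by 0.95 (adjusted p = 0.0057) and by 0.74 (adjusted p = 0.025). Egln2 rose with null virus (log2 0.51, adjusted p = 0.028), and Egln1, the main HIF prolyl hydroxylase, was lower with USP28 virus than in control (log2 -0.71, adjusted p = 0.048). Leaving out null-virus replicate 1, 2 rose and 2 fell with null virus, and 0 rose and 4 fell with USP28 virus against control. The added call was Cited2, a competitor of HIF for its coactivators, higher with null virus (log2 0.83, adjusted p = 0.0091) and lower with USP28 virus (log2 -0.68, adjusted p = 0.014). Between the db/db groups 0 were called in limma with all libraries. In the fit without null-virus replicate 1, Cited2 (log2 -1.51, adjusted p = 0.0043) and Egln1 (log2 -0.61, adjusted p = 0.011) were lower with USP28 virus. Arnt, the shared partner subunit, was at 5.29 ± 0.28, 5.45 ± 0.37 and 5.47 ± 0.5.

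The 23 tested HIF target genes moved in both directions. With null virus 5 were higher and 4 lower, with a median log2 difference of 0.28. Bnip3, a mitophagy receptor (log2 1.03, adjusted p = 0.0018), and Ddit4, an inhibitor of mTORC1 (log2 1.53, adjusted p = 0.0017), were higher. Hk2, a hexokinase (log2 -1.53, adjusted p = 0.00067), and P4ha1, a collagen prolyl hydroxylase (log2 -1.21, adjusted p = 0.0046), were lower. Ldha, a lactate dehydrogenase subunit, did not pass (log2 0.11, adjusted p = 0.4). Without null-virus replicate 1 the count was 10 higher and 7 lower. With USP28 virus against control 2 were higher and 4 lower (5 and 7 without that library), and against null virus 0 were called in limma (0 higher and 3 lower without it). Over all genes, calls with null virus against control also reached 4473 with 1 library left out, against 3154 with all libraries.

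**Figure D5:**
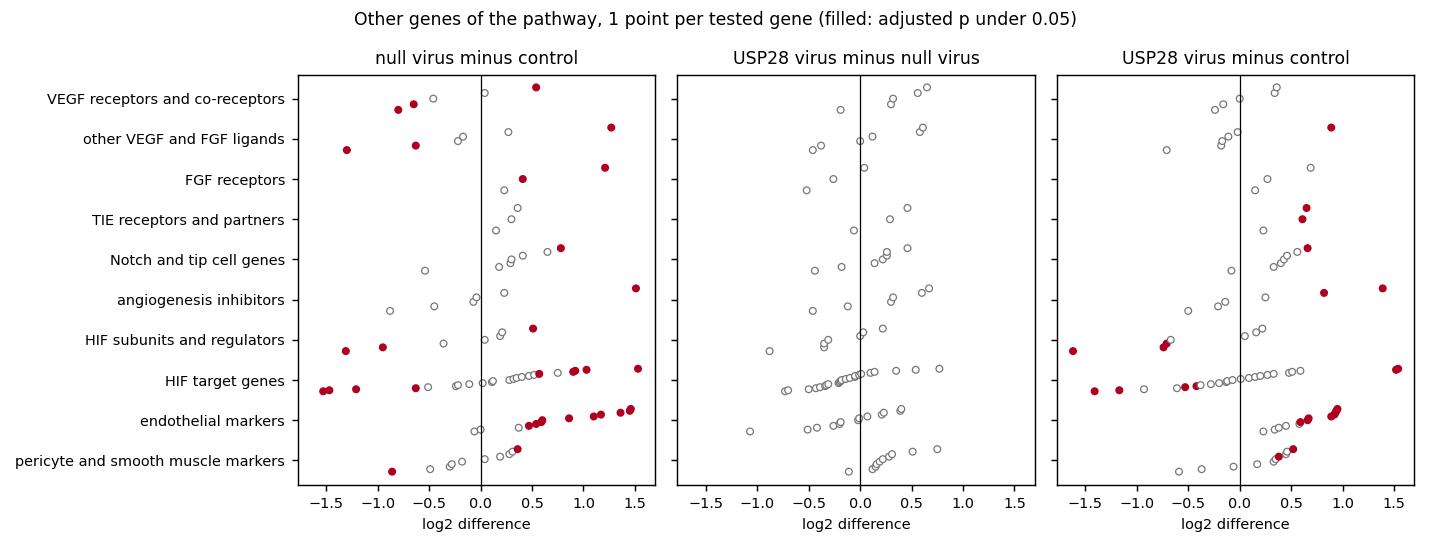
Log2 differences of the other genes of these pathways and of vessel cell markers, 1 point per tested gene, in the 3 comparisons; filled points have an adjusted p under 0.05. Filled points of the HIF target genes lie on both sides of 0 in the left panel, and those of the endothelial markers lie above 0.

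Most endothelial markers were higher in both db/db groups. Of 13, 10 were higher and 0 lower with null virus than in control (of all genes 22.4% were called). With USP28 virus 8 were higher and 0 lower (of all genes 11.9%). Their summed level was 165 to 200 scaled RPKM in control, 354 to 467 with null virus and 294 to 333 with USP28 virus, and 0 were listed at 0. Fabp4, a fatty acid carrier of capillaries, held much of these sums, at 80.6 ± 18, 225 ± 68.1 and 154 ± 11.1 in the same order, and was higher with null virus (log2 1.46, adjusted p = 0.0033). Gpihbp1, which holds lipoprotein lipase on capillaries (log2 1.36, adjusted p = 0.0012), and Pecam1, an endothelial adhesion protein (log2 0.47, adjusted p = 0.044), were also higher with null virus. The other 3 did not pass. Vwf, von Willebrand factor, was at 2.1 ± 0.353 in control and 2.13 ± 0.6 with null virus (adjusted p = 1), Emcn, an endothelial sialomucin, at 1.52 ± 0.105 and 1.5 ± 0.487 (adjusted p = 0.84), and Cdh5, an endothelial cadherin, at 21.8 ± 0.664 and 29.1 ± 7.94 (adjusted p = 0.19).

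In the fit without null-virus replicate 1, 11 endothelial markers were higher in each db/db group than in control, Cdh5 among them (log2 0.62, adjusted p = 0.0011, with null virus). Between the db/db groups 0 were called in limma with all libraries. Without that library Emcn was higher (log2 0.63, adjusted p = 0.015) and Cldn5, a tight junction protein, lower (log2 -1.25, adjusted p = 0.016) with USP28 virus. Aplnr, which endothelial cells express, was thus lower in null-virus libraries in which most of the listed endothelial markers were higher. Vessel genes outside that list went both ways. With all libraries the null-virus mean of Kdr was 13 against 18.2 in control, and that of Pcdh12 was 0.992 against 1.62. Neither passed, while the mean of Flt1 was 10.7 against 7.2. The part of cell makeup in the members' differences was not tested.

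Pericyte and smooth muscle markers summed to 219 to 266 in control, 214 to 275 with null virus and 265 to 305 with USP28 virus. Of 10 tested, 1 was higher and 1 lower with null virus, and 2 were higher and 0 lower with USP28 virus against control. Of all genes 22.4% and 11.9% were called in these comparisons. The marker counts were, without null-virus replicate 1, 2 and 2, and 4 and 1. Of 7 tested genes of Notch signalling and tip cells 1 was higher with null virus, Hey1 (log2 0.78, adjusted p = 0.004), and 1 with USP28 virus against control, Jag1, a Notch ligand (log2 0.66, adjusted p = 0.045). Without that library 4 were higher with null virus (Hey1, Jag1, Notch1 and Notch4) and 3 with USP28 virus (Jag1, Notch1 and Notch4). Of 6 tested inhibitors of angiogenesis 1 was higher with null virus and 2 with USP28 virus than in control. Thbs2, which encodes thrombospondin 2, was higher in both (log2 1.51, adjusted p = 0.0067, and 1.39, adjusted p = 0.016), and Adamts1, a secreted protease, with USP28 virus (log2 0.82, adjusted p = 0.014). Serpinf1, which encodes an antiangiogenic factor, passed as lower with null virus when replicate 1 of that group was left out (log2 -0.55, adjusted p = 0.036).

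Of 6 fibroblast markers 3 were lower with null virus and 1 with USP28 virus than in control, and Lum, which encodes lumican, was higher with USP28 virus than with null virus (log2 1, adjusted p = 0.027). Dcn, which encodes decorin, passed as higher with null virus than in control when null-virus replicate 1 was left out (log2 0.41, adjusted p = 0.041). Of 6 macrophage markers 2 were lower with null virus and 1 with USP28 virus than in control, the latter 2 without that library. Of 7 cardiomyocyte markers 0 were called in limma in any of the 3 comparisons with all libraries. With null-virus replicate 1 left out, Ryr2, the calcium release channel, was lower in both db/db groups than in control (log2 -0.57, adjusted p = 0.0018, with null virus and -0.94, adjusted p = 0.00029, with USP28 virus). In that fit Myh6, a cardiac myosin, was lower (log2 -0.52, adjusted p = 0.0073) and Tnnt2, a troponin, higher (log2 0.25, adjusted p = 0.031) with null virus, and Pln, phospholamban, was lower with USP28 virus than in control (log2 -0.24, adjusted p = 0.043). Between the db/db groups Tnnt2 and Ryr2 were then lower with USP28 virus (log2 -0.31, adjusted p = 0.044, and -0.37, adjusted p = 0.035). Of 3 tested atrial and 5 erythroid markers 0 were called in limma in any comparison, with or without that library.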

How the data were processed

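The deposited table holds RPKM values for 30128 genes in 9 libraries, with gene length. HISAT2 and DESeq2 are named in the submitters' processing notes, with no version or role, and so is the build GRCh38, a human build. Symbols and spans are mouse, so coordinates are those of the deposited table on GRCm38. The unit was read from the values: 99.9839% of values above 0 are whole reads within 0.01, which gave reads and depth. The 11 genes with other values include 0 of the 10 members.

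RPKM was scaled by a trimmed mean of M values (30% of ratios and 5% of levels trimmed, unweighted). A gene was tested if 3 or more libraries reached an RPKM of 0.5. Then log2(scaled RPKM + 0.1) was fitted in limma 3.58.1 (R 4.3.3, trended robust prior) over all 9 libraries without covariates, and p-values were adjusted by Benjamini-Hochberg over all genes tested. Fold changes on this scale understate the change of low genes. The fit was tested on simulated data. No 2 libraries of a group were alike within sampling noise. The labels do not say that libraries come from separate animals, so p-values cover the spread among these libraries, which may be technical. Ratios used exact permutation tests.

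All 10 members are named. Other genes named are those of the lists that passed, with all libraries or without null-virus replicate 1, or up to 3 of the most abundant, and the 3 nearest in pattern. Kdr, Arnt, Ldha, Vwf, Emcn, Cdh5 and Apela were added for their roles, after their values were seen. The result of 1 listed gene is not reported here. The members and the 17 further lists, of which 2 symbols matched no row, were chosen with earlier results of these data known. Alternatives were other scalings, pseudocounts, filters and thresholds, fits of 2 groups, a replicate block, limma voom and each library left out. List counts without null-virus replicate 1 were added after seeing the data.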

Additional observations from a re-analysis of the deposited data

How the results depend on the processing

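Under the alternatives 526 values of single members kept their direction and side of the threshold, 14 newly passed it, 12 no longer passed and 12 changed sign. Those that changed sign beyond single libraries were Vegfc (0.04) and Angpt2 (0.02) between USP28 virus and null virus and Vegfb (0.01) between USP28 virus and control, all with library totals alone. With single libraries left out, sign changes lay within these ranges: with null virus against control Fgf1 -0.07 to 0.34 and Angpt1 -0.59 to 0.65, and with USP28 virus against null virus Vegfc -0.1 to 0.07, Epas1 -0.11 to 0.11 and Angpt1 -1.02 to 0.22. The log2 ratio of Angpt2 to Angpt1 ranged from -1.01 to 0.19, -0.29 to 0.92 and -0.57 to 0.22 in null virus against control, USP28 virus against null virus and USP28 virus against control. In the same order, members called ranged from 1 to 5, 0 to 3 and 0 to 3, and all genes called from 1441 to 4473, 0 to 948 and 368 to 4121, when 1 library was left out. At an adjusted p under 0.1 members called were 5, 1 and 2, and all genes called were 327 for USP28 virus against null virus and 2808 for USP28 virus against control. The count over all genes for null virus against control at that threshold is not given here, so its 5 members have no share beside them. In fits of 2 groups alone all genes called were 1657, 0 (1827 at an unadjusted p under 0.05) and 3882, with 2 members called in USP28 virus against control. With no filter they were 2054, 10 and 928. Library totals alone gave 31 for USP28 virus against null virus and 921 for USP28 virus against control, and voom 195 for the former. The causes were not tested.

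The replicate number as a block gave 0 genes for USP28 virus against null virus (2330 at an unadjusted p under 0.05). Same-numbered libraries had departures correlated at -0.03 to 0.06, which shows no pairing by number. Whether such libraries shared a batch is not given by the labels. The block changed no call of a member. Depth limits Apln, Aplnr and Vegfc most, which rested on as few as 14, 28 and 39 reads in a library.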
